A study of Mus musculus with 2 samples.

Results

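The genes of cholesterol and fatty acid synthesis, with the SREBP regulators and the sterol transport genes, were examined in primordial germ cells (PGCs), the embryonic precursors of eggs and sperm. The set was a fixed list of 36 gene symbols, and a gene entered when both deposited tables listed it under its own name. This held for 33 of the 36 genes, among 23320 gene names present in both tables, and all 33 were above 0 in both libraries. Acat2, Tm7sf2 and Scd2 were listed only jointly with a neighbouring gene in at least 1 table and are described separately.

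Both libraries came from Oct4-deltaPE-GFP E13.5 PGCs, in which the transgene marks germ cells for sorting, taken from genital ridges of male and female embryos. The control PGCs received a control lentivirus and the Klf9-OE PGCs a lentivirus carrying the Klf9 coding region, both at MOI 5, and both were cultured for 1 day on gelatin without feeder cells. The embryos came from MCH females mated with transgenic males on a C57BL/6J background, and the insert of the control virus is not given for these libraries in the sources used here. The sample labels describe the medium as containing bFGF, whereas the paper describes it as lacking bFGF, in either case for both libraries alike. Each group had 1 library, so no difference below has a replicate check, and the Cufflinks 95% interval printed beside each value covers only the error of estimation within that library. The tables give no read totals. Klf9 itself was at an RPKM of 2.27 (1.97 to 2.57) in the control library and 80.8 (77.0 to 84.5) in the Klf9-OE library, and reads of the vector and of the endogenous gene are not separated.

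Cells make cholesterol from acetyl-CoA, first through the mevalonate pathway, which also supplies the isoprenoids used to anchor proteins in membranes, and then through squalene and a series of sterol intermediates. The transcription factors SREBP2 and SREBP1, encoded by Srebf2 and Srebf1, switch on these enzymes and those of fatty acid synthesis when sterols are scarce, while sterol excess retains their precursors in the endoplasmic reticulum through SCAP and the INSIG proteins. Oxysterols also act through the liver X receptors (LXRs), which switch on sterol exporters. Products of the mevalonate pathway are also known to guide migrating germ cells in flies and fish.

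SREBP and LXR proteins act at promoters, and 4 promoters are shown because the genes stand for the main roles in the set. They are the earliest measured enzyme of the mevalonate pathway (Hmgcs1), a late sterol enzyme (Msmo1), the SREBP regulator Insig1 and the exporter Abca1. Each line holds the 250 bases before the RefSeq transcription start (GRCm38.p6), 5′ to 3′ on the strand of the gene, and capitals mark matches to any of 4 motifs described with the promoter results. No element bound by LXRs is among these motifs, so any such element in the windows is unmarked. The windows are chr13:119690101-119690350 (forward strand) for Hmgcs1, chr8:64733579-64733828 (reverse) for Msmo1, chr5:28071162-28071411 (forward) for Insig1 and chr4:53159896-53160145 (reverse) for Abca1.
Hmgcs1: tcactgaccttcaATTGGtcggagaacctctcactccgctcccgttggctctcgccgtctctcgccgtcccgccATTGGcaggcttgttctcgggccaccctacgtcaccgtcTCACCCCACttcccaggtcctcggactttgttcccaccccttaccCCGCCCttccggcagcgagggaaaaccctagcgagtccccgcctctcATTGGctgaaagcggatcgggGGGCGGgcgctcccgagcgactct
Msmo1: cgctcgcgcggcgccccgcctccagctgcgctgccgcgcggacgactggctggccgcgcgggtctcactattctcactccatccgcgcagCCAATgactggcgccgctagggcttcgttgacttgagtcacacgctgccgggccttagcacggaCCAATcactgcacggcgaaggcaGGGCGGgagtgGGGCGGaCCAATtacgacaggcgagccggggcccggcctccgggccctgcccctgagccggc
Insig1: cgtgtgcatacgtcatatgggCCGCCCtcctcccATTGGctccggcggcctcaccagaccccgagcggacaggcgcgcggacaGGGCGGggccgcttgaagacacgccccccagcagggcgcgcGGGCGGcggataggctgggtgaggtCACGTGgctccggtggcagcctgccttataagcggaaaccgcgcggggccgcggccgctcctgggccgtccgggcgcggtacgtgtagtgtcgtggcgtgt
Abca1: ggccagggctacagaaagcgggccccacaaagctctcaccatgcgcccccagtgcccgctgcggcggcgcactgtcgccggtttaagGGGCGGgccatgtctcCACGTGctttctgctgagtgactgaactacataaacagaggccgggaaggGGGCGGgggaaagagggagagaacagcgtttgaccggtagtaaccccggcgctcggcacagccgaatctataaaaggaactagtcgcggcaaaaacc

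Across the 33 genes, most transcripts were somewhat less abundant in Klf9-OE PGCs, and none differed 2-fold. In Klf9-OE PGCs, 24 of the genes had a lower RPKM than in control PGCs and 9 a higher one. The ratio of RPKM in Klf9-OE to that in control ranged from 0.676 for Pmvk to 1.26 for Fads1, with a median of 0.878. Without overlap between the control and Klf9-OE intervals, 20 of the 33 genes were lower (60.6%) and 2 were higher (6.06%). Over all 18737 genes above 0 with a usable estimate, these shares were 14.4% lower and 11.2% higher. Since intervals are narrower at higher expression, the shares were also taken over genes that reached an RPKM of 1 in either library, where they were 20.2% lower and 14.8% higher, and over genes that reached an RPKM of 5, where they were 22.6% lower and 15.1% higher. With the libraries rescaled to the same summed RPKM, 13 of the 33 genes were lower (39.4%) and 3 higher (9.09%) without overlap, beside 14.9% lower and 20.6% higher among genes that then reached an RPKM of 1. The rescaling thus also turned the balance of higher and lower genes over the whole table. Of the 29 listed genes that reached an RPKM of 5, 19 were lower (65.5%) and 2 were higher. A ratio of at least 2 was seen for 9.82% of all genes above 0 and a ratio of at most 0.5 for 9.43%, against 0 of the 33 genes in either direction. These shares include low genes, since 12565 of the 18742 genes above 0 reached an RPKM of 1, as all 33 listed genes did. No share of 2-fold ratios was taken at a matched level. Genes with an RPKM of at least 5 had quartiles of log2(RPKM + 0.1) fold change at -0.19 and 0.11.

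The median log2 fold change of the 33 genes, on the scale of log2(RPKM + 0.1), was -0.19, beside -0.015 over all 18742 genes above 0 and -0.030 over the 9072 genes with an RPKM of at least 5. Genes of the 2 sterol synthesis lists stood lower, with a median log2 fold change of -0.27 over 16 enzymes.

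**Figure D1:**
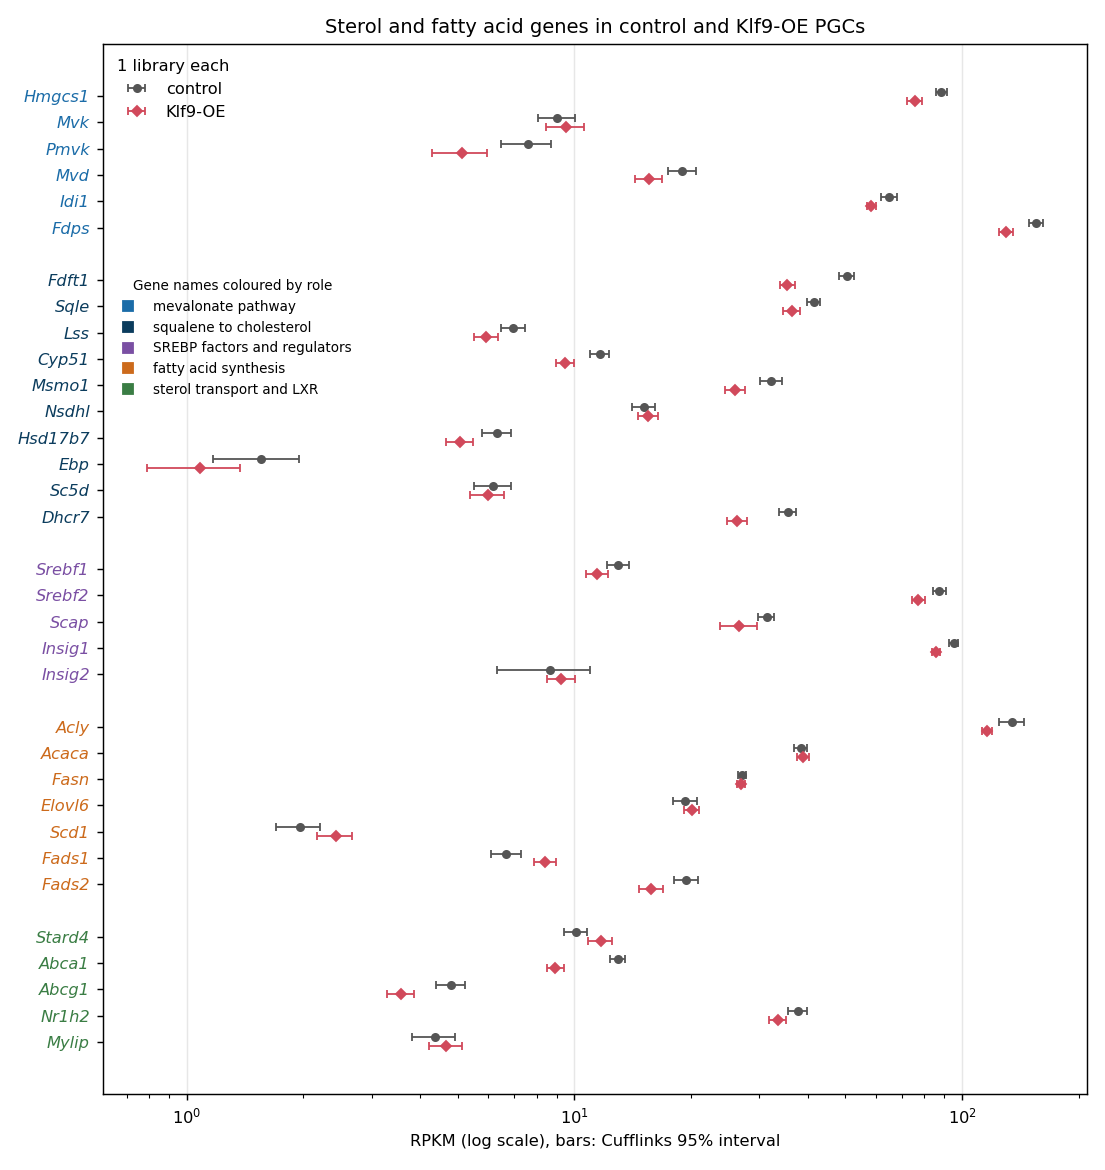
RPKM of the 33 genes on a log axis in the control library (grey circles) and the Klf9-OE library (red diamonds), 1 library each, with bars for the Cufflinks 95% interval and gene names coloured by role. Levels run from 1.08 for Ebp in Klf9-OE PGCs to 155 for Fdps in control PGCs, and the order of the genes is much the same in both libraries while most sterol genes sit slightly lower in Klf9-OE.

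The precision of these values differed between genes. The half-width of the interval was 2.17% to 27.1% of the RPKM, with a median of 6.82% in the control library and 6.22% in the Klf9-OE library. Implied read numbers, taken from the interval width, were even for 88.9% of 1763 low genes in the Klf9-OE library and for 36.4% of 2113 in the control library. The Klf9-OE intervals were therefore also widened by the square root of 2, as if every read had been counted in a pair. With this, 17 of the 33 genes remained lower without overlap and 1 higher, against 16.8% and 11.7% of genes with an RPKM of at least 1. Lss, Scap and Nr1h2 on the lower side and Stard4 on the higher side then overlapped.

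The levels of the set spanned most of the expressed range. The listed genes had a median RPKM of 19.0 in control PGCs and 15.6 in Klf9-OE PGCs, and the median gene of the set stood above 74.4% of genes detected in control PGCs. The highest in control PGCs were Fdps, Acly, Insig1, Hmgcs1 and Srebf2, and the same 5 were highest in Klf9-OE PGCs. The lowest in control PGCs were Ebp, Scd1 and Mylip. Levels were thus highest in the farnesyl branch point and the citrate-cleaving step that supplies acetyl-CoA, and lowest in a late sterol isomerase and a stearoyl-CoA desaturase. Across the 33 genes, Spearman's rho between level and log2 fold change was -0.059, a description over genes that share 2 libraries.

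In the mevalonate pathway, 5 of 6 genes were lower in Klf9-OE PGCs without overlap and none was higher without overlap, with a median ratio of 0.844. Hmgcs1, which makes HMG-CoA, was at an RPKM of 88.5 (85.4 to 91.6) in the control library and 75.4 (72.1 to 78.7) in the Klf9-OE library. Fdps, the synthase of farnesyl diphosphate and the most abundant transcript of the set, had 155 (149 to 161) and 129.7 (124 to 135). Both genes were about as far below their control value, at ratios of 0.852 (0.807 to 0.900) and 0.835 (0.789 to 0.884), where the bounds combine the errors of both libraries. Idi1, the isomerase of isopentenyl diphosphate, had 64.9 (61.9 to 67.9) and 58.4 (56.8 to 60.0). Mvd, the decarboxylase that yields isopentenyl diphosphate, had 19.0 (17.5 to 20.6) and 15.6 (14.3 to 16.9). The lowest ratio of the whole set belonged to Pmvk, phosphomevalonate kinase, at 7.59 (6.47 to 8.71) and 5.13 (4.30 to 5.96), a ratio of 0.676 (0.546 to 0.838). Mvk, mevalonate kinase, which acts one step earlier, had 9.04 (8.06 to 10.0) and 9.52 (8.43 to 10.6), with intervals that overlapped. The ratio of Mvk was 1.05, with bounds of 0.902 to 1.23, so its lower bound lay above the ratios of Hmgcs1, Fdps, Mvd and Pmvk and level with the 0.900 of Idi1. Summed over the 6 genes, the RPKM was 344 in control and 294 in Klf9-OE PGCs.

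From squalene to cholesterol, 7 of 10 genes were lower without overlap and none was higher without overlap, with a median ratio of 0.811. Fdft1, squalene synthase, which commits farnesyl diphosphate to sterols, was at an RPKM of 50.5 (48.1 to 52.8) in the control library and 35.4 (33.8 to 37.1) in the Klf9-OE library, a ratio of 0.702 (0.659 to 0.749). Dhcr7, which reduces 7-dehydrocholesterol to cholesterol, had 35.5 (33.7 to 37.4) and 26.3 (24.7 to 27.8), a ratio of 0.739 (0.684 to 0.799). By ratio alone, the first and the last gene of this branch in the set had larger reductions than the genes between them whose intervals did not overlap. The bounds of Dhcr7 overlapped those of Lss (0.771 to 0.940), Cyp51 (0.754 to 0.879), Msmo1 (0.740 to 0.881) and Hsd17b7 (0.714 to 0.898). Those of Fdft1 overlapped the bounds of Msmo1 and Hsd17b7. Ebp, also between these ends, had a lower ratio than both, 0.695, but with library intervals that overlapped. Sqle, squalene epoxidase, had 41.5 (39.9 to 43.0) and 36.4 (34.5 to 38.3). Lss, lanosterol synthase, which closes the rings, had 6.97 (6.47 to 7.47) and 5.93 (5.51 to 6.35). Cyp51, the lanosterol demethylase, had 11.6 (11.0 to 12.3) and 9.48 (8.95 to 10.0). These genes had ratios of 0.878, 0.851 and 0.814, so each was lower by less than Fdft1.

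The enzymes that strip methyl groups from the sterol ring differed among themselves. Msmo1, the sterol methyl oxidase, was at an RPKM of 32.2 (30.1 to 34.3) in the control library and 26.0 (24.4 to 27.6) in the Klf9-OE library. Hsd17b7, a ketosteroid reductase of the same complex, had 6.33 (5.79 to 6.87) and 5.07 (4.67 to 5.47). Their ratios were alike, at 0.808 and 0.801. Nsdhl, the dehydrogenase that acts between them, had 15.1 (14.1 to 16.2) and 15.5 (14.6 to 16.5), a ratio of 1.03 (0.937 to 1.13), whose lower bound lies above the ratios of both partners. Sc5d, a sterol desaturase, had 6.17 (5.49 to 6.85) and 5.98 (5.39 to 6.57), with intervals that overlapped. Ebp, the sterol isomerase and the least abundant of the set, had 1.56 (1.17 to 1.95) and 1.08 (0.791 to 1.37), and its intervals also overlapped although its ratio of 0.695 was among the lowest.

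**Figure D2:**
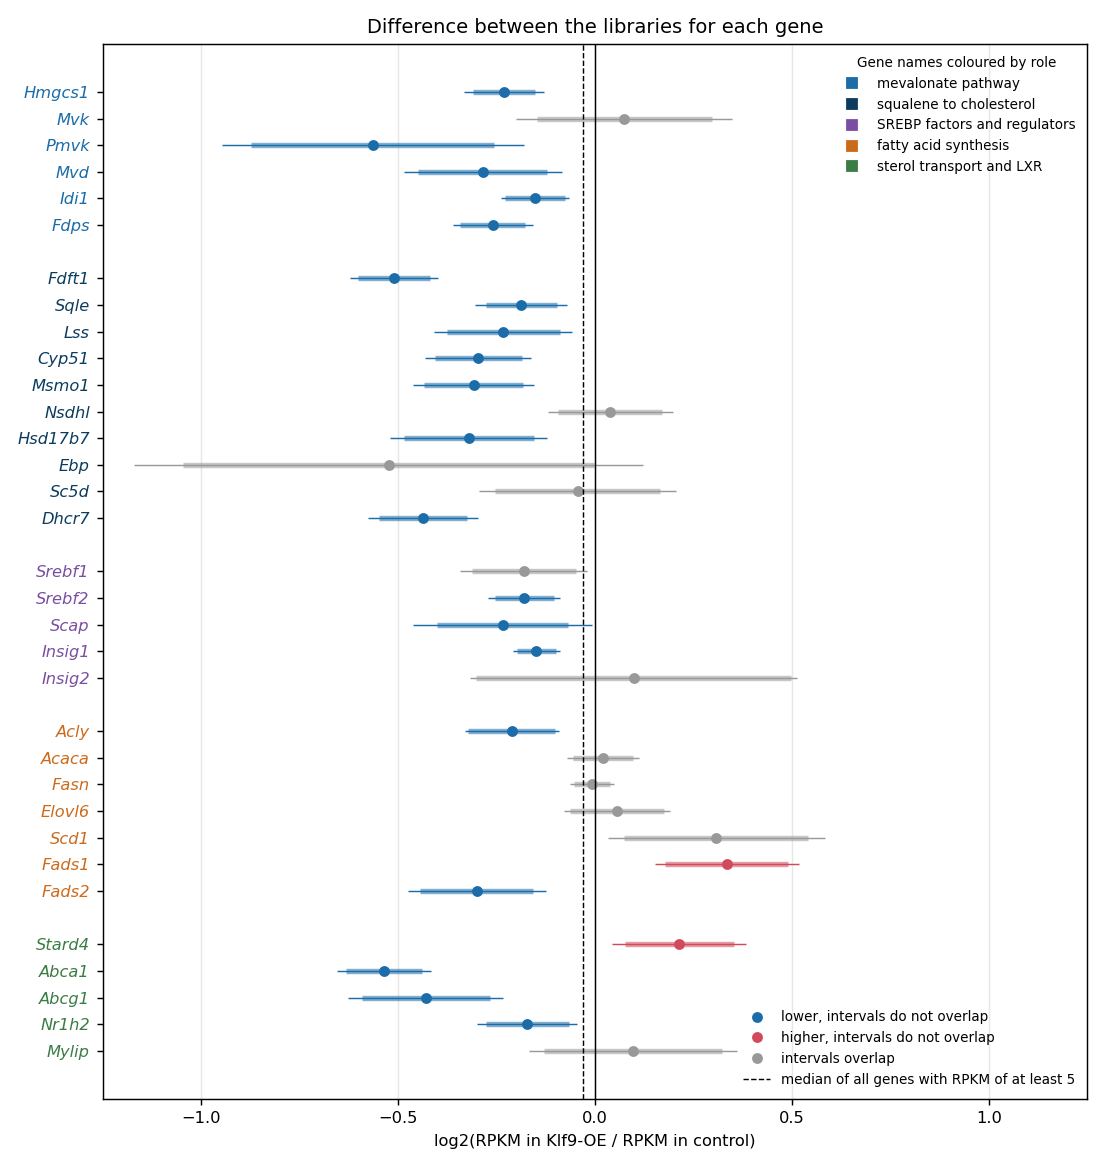
Log2 ratio of RPKM, Klf9-OE over control, for each gene, with no pseudocount. Thick bars give the 95% interval combined from both libraries and thin bars the interval after widening Klf9-OE by the square root of 2, with colour for genes whose library intervals do not overlap. The dashed line is the median of genes with an RPKM of at least 5, and 20 genes lie to its left in blue against 2 to the right in red.

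The SREBP regulators showed smaller differences, with a median ratio of 0.883 over 5 genes, 3 of them lower without overlap. Srebf2, which encodes the factor that mainly drives sterol genes, was at an RPKM of 87.4 (84.1 to 90.7) in the control library and 77.2 (74.4 to 80.1) in the Klf9-OE library. Srebf1, whose product mainly drives fatty acid genes, had 13.0 (12.1 to 13.9) and 11.5 (10.7 to 12.2), with intervals that overlapped narrowly. The ratios of these genes were 0.883 and 0.882, and Srebf2 stood 6.73-fold above Srebf1 in control PGCs and 6.74-fold above it in Klf9-OE PGCs. Insig1, itself a target of SREBP, had 95.2 (92.8 to 97.7) and 85.9 (83.8 to 88.0). Insig2, the second retention protein, had 8.65 (6.31 to 11.0) and 9.26 (8.52 to 10.0), and its control interval was the widest of the set relative to its value. Insig1 thus exceeded Insig2 11.0-fold in control and 9.27-fold in Klf9-OE PGCs. Scap, the escort of the SREBP precursors, had 31.3 (29.8 to 32.8) and 26.6 (23.7 to 29.5).

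Fatty acid synthesis genes gave mixed values. Among 7 genes, 2 were lower and 1 higher without overlap, the summed RPKM was 247 in control and 229 in Klf9-OE PGCs, and the median log2 fold change was 0.020, or a median ratio of 1.01. Fasn, fatty acid synthase, was among the best measured genes of the set, at an RPKM of 27.0 (26.4 to 27.7) in the control library and 26.9 (26.3 to 27.5) in the Klf9-OE library. Its ratio was 0.995 with bounds of 0.964 to 1.03, whose lower bound lay above the ratios of the mevalonate genes other than Mvk. Acaca, the acetyl-CoA carboxylase that supplies malonyl-CoA, had 38.4 (36.9 to 39.9) and 38.9 (37.5 to 40.3). Elovl6, an elongase of saturated chains, had 19.3 (17.9 to 20.7) and 20.1 (19.2 to 21.0). For these core enzymes, the libraries differed by less than their intervals. Acly, ATP citrate lyase, which feeds both fatty acid and sterol synthesis, had 134 (125 to 144) and 116 (112 to 120), a ratio of 0.864.

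The desaturases went in different directions. Fads2, the delta-6 desaturase of polyunsaturated fatty acids, was at an RPKM of 19.4 (18.0 to 20.9) in the control library and 15.8 (14.7 to 16.9) in the Klf9-OE library, while Fads1, which acts after it, had 6.67 (6.08 to 7.27) and 8.41 (7.85 to 8.98). The intervals of neither gene overlapped, and the genes are neighbours on chromosome 19 of mm10, with 81238 bases between their listed loci. Fads2 stood 2.91-fold above Fads1 in control PGCs and 1.88-fold above it in Klf9-OE PGCs. The assembly of Fads1 differed between the tables, which list it as an assembled locus in control PGCs and under its reference name in Klf9-OE PGCs, and the part of this difference in its value was not tested. Scd1, a stearoyl-CoA desaturase, had 1.95 (1.70 to 2.21) and 2.42 (2.17 to 2.67), with intervals that overlapped narrowly.

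Among sterol transport and LXR genes, both ATP-binding cassette exporters were lower. Abca1, which loads cholesterol onto apolipoprotein A-I, was at an RPKM of 13.0 (12.4 to 13.5) in the control library and 8.94 (8.48 to 9.39) in the Klf9-OE library, a ratio of 0.690 (0.646 to 0.738). Abcg1, which passes cholesterol to lipoproteins, had 4.81 (4.40 to 5.22) and 3.57 (3.30 to 3.85), a ratio of 0.742 (0.663 to 0.831). Both reductions were larger than the 0.888 of Nr1h2, which encodes LXR beta and had 37.7 (35.7 to 39.7) and 33.5 (31.8 to 35.2). Mylip, another LXR target and a ubiquitin ligase for lipoprotein receptors, had 4.36 (3.80 to 4.92) and 4.67 (4.22 to 5.12), with intervals that overlapped. Stard4, a cytosolic sterol carrier that is a known SREBP target, was higher at 11.7 (10.9 to 12.5) than the control value of 10.1 (9.39 to 10.8).

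**Figure D3:**
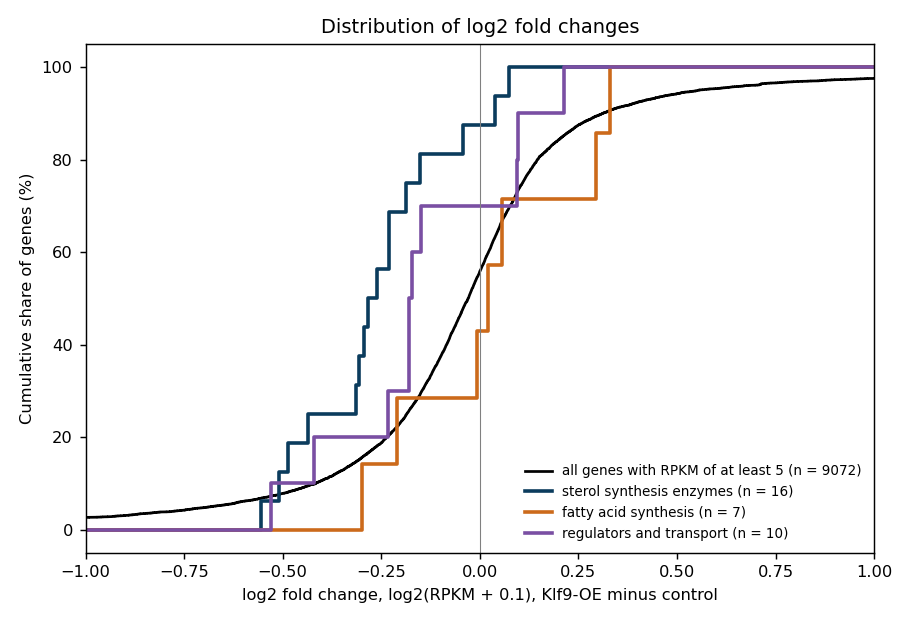
Cumulative distribution of log2 fold changes on the scale of log2(RPKM + 0.1), Klf9-OE minus control, for genes with an RPKM of at least 5 (black, n = 9072), sterol synthesis enzymes (dark blue, n = 16), fatty acid synthesis genes (orange, n = 7) and regulators with transport genes (purple, n = 10), the lists without a minimum RPKM. The sterol curve lies to the left of the black curve over nearly its whole length, with 14 of its 16 genes below 0 against 55.9% of the genes in the black curve, while the fatty acid curve crosses it.

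**Figure D4:**
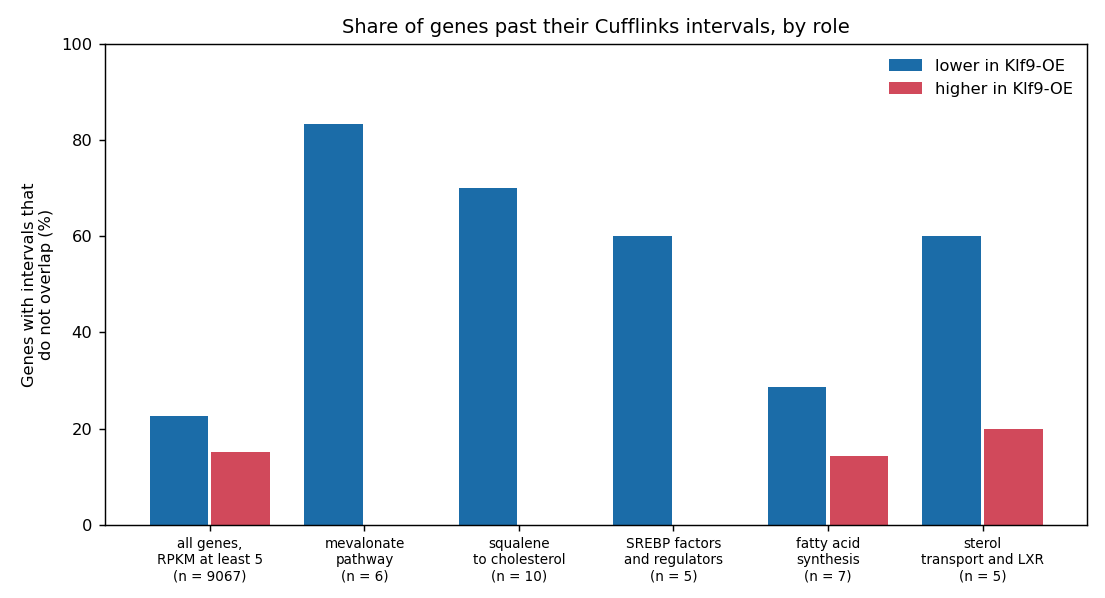
Percentage of genes whose Cufflinks intervals do not overlap, lower (blue) or higher (red) in Klf9-OE PGCs, for genes with an RPKM of at least 5 and for each role of the list, without a minimum for the latter. The blue bar is 83.3% in the mevalonate pathway and 70.0% from squalene to cholesterol, and 28.6% in fatty acid synthesis, beside 22.6% of all genes at this level.

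The joint loci gave partial values for the remaining genes. Acat2, the cytosolic thiolase that condenses acetyl-CoA, was listed alone in the control table at an RPKM of 50.9 (47.9 to 53.9), but the Klf9-OE table joins it with Wtap at 83.7 (80.5 to 86.9). The control values of Acat2 and Wtap add up to 105, so the joint level was 0.801 of the control sum, and the share of Acat2 in it cannot be told apart from that of Wtap. Tm7sf2, a sterol reductase, was joined with Vps51 in both tables, at 23.4 (21.6 to 25.2) and 20.4 (18.9 to 21.8). Scd2, the second stearoyl-CoA desaturase, was joined with Mir5114 at 33.0 and 31.7, where the bounds of 0 to 871 and 0 to 718 leave the difference undetermined.

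Of the 33 genes, 17 were listed as assembled loci in both tables, 8 under their reference name in both, 7 as assembled only in control and 1 only in Klf9-OE. Genes with an RPKM of at least 5 that were assembled only in control had a median log2 fold change of -0.082, those assembled only in Klf9-OE 0.026, those assembled in both -0.023 and those under the reference name in both -0.030. Among the listed genes the median was -0.044 for the 7 assembled only in control and -0.23 for the 17 assembled in both. Idi1 and Abcg1, both lower without overlap, were assembled only in control, like Fads1, and Sqle, also lower without overlap, only in Klf9-OE. The part of this difference in their values was not tested either. The 8 listed genes under their reference name in both tables were Pmvk, Mvd, Cyp51, Nsdhl, Ebp, Insig1, Fasn and Scd1. The median of these 8 was -0.22, and 4 of them were lower without overlap, a count for which no share over all genes of that kind was taken.

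Other lipid genes were counted in the same way. Of 49 such genes above 0, none of them in the list of 36, 6 were lower (12.2%) and 8 higher (16.3%) without overlap, near the 14.4% and 11.2% of all genes above 0, with a median log2 fold change of 0.013. In the sterol and isoprenoid list, 3 of 11 genes were lower and 2 higher without overlap. Pdss1 of that list, a subunit of the enzyme that builds the ubiquinone tail, was higher at 11.7 (10.6 to 12.8) than its control value of 7.64 (6.67 to 8.62). Acsl5, an acyl-CoA synthetase, had 2.71 (2.26 to 3.16) in the control library and 6.80 (6.09 to 7.51) in the Klf9-OE library, a ratio of 2.51. Nr1h3, which encodes LXR alpha, had 1.67 (1.28 to 2.06) and 2.84 (2.36 to 3.31), in the opposite direction to Nr1h2. The 5 genes of SREBP processing, among them Mbtps1, the first protease that cuts the precursors, all had overlapping intervals.

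Markers of the sorted cells were mostly lower in Klf9-OE PGCs as well. Of 10 PGC markers, 8 were lower and 1 higher without overlap, their summed RPKM was 1521 in control and 1275 in Klf9-OE PGCs, and their median log2 fold change was -0.40. Dppa3 had 294 (279 to 309) and 179 (169 to 188), and Dnd1 had 119 (113 to 125) and 97.9 (92.9 to 103). Ddx4, in contrast, had 299.9 (287 to 313) and 292 (280 to 305), with overlapping intervals, and Dazl was higher, at 351 (340 to 363) and 378 (366 to 390). Of 4 mesenchymal markers, 3 were higher and 0 lower without overlap, with a summed RPKM of 16.3 and 23.6. For 8 Sertoli and granulosa markers the sum was 37.7 and 47.6, with 1 lower and 4 higher without overlap. For 5 endothelial markers it was 3.46 and 6.31, with 1 lower and 1 higher without overlap, while 3 of the 5 were below their control value. For 6 macrophage markers it was 4.85 and 5.93, with 0 lower and 1 higher without overlap, while 3 of the 6 were below their control value. In each of these 2 lists, 4 genes were under an RPKM of 1 in both libraries, so the sums do not describe most of the genes. In such bulk libraries, fewer PGCs and less RNA per PGC cannot be told apart, and the part of these markers in the lower sterol transcripts was not tested.

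Markers of steroidogenic cells, which use cholesterol to make hormones, were low, with a summed RPKM over 5 genes of 3.38 in control and 6.12 in Klf9-OE PGCs, and 1 gene higher without overlap. Cyp11a1, the side-chain cleavage enzyme, was at an RPKM of 3.27 (2.63 to 3.91) in the control library and 3.60 (3.07 to 4.13) in the Klf9-OE library. Cyp17a1, Hsd3b1 and Hsd3b6 were below 0.1 in both libraries. Star, which carries cholesterol into mitochondria, was the gene counted as higher. Its RPKM was 2.39 (2.12 to 2.67) with Klf9-OE, while the control value was listed as 0 with bounds of 0 to 0. Most of the rise in the sum came from Star, so both the sum and the count depend on that 0. Whether the 0 reflects absent transcript or the way the locus was assembled was not tested.

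Promoter sequence was compared for the genes with an entry in the RefSeq table, which held 28 of the 36. The motifs searched on both strands were CCAAT, the core bound by NF-Y, GGGCGG, the GC box bound by Sp and Klf factors, CACGTG, an E-box that reads the same on both strands, and TCACNCCAC, a core of the sterol regulatory element, each searched on its own so that matches could overlap. Within the 250 bases before the start, CCAAT was found in 20 of the 28 genes (71.4%), beside 37.5% of all 27025 genes in the table. GGGCGG was found in 23 of 28 (82.1%) beside 35.4%, CACGTG in 6 of 28 (21.4%) beside 6.86%, and TCACNCCAC in 1 of 28 (3.57%) beside 1.22%. All 13 measured sterol synthesis enzymes with an entry held CCAAT, and 12 of them held GGGCGG. The windows of the listed genes had a median GC content of 62.6%, against 52.4% over all 32851 windows in the table, so the comparison sets differ in base composition. The 27025 genes were also not limited to those expressed in these libraries, and no share of motifs was taken over expressed genes alone.

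In the windows printed above, Hmgcs1 has the only match to TCACNCCAC among the 28 genes with an entry, which begins 137 bases before the start. It also has 3 copies of CCAAT, all on the opposite strand and so printed as ATTGG, and 2 of GGGCGG. Msmo1 has 3 copies of CCAAT and 2 of GGGCGG, Insig1 has 1 CCAAT, 3 GC boxes and 1 CACGTG, and Abca1 has 2 GC boxes and 1 CACGTG but no CCAAT. A match describes letters only, and no binding was measured. Other forms of the sterol regulatory element, and sequence outside the 250 bases, were not searched. A gene without a match to TCACNCCAC is therefore not shown to lack such an element. The median log2 fold change was -0.18 for the 19 measured genes with CCAAT and -0.21 for the 7 with a window that lacked it. It was -0.23 for the 21 genes with GGGCGG and -0.0077 for the 5 without it, a difference given as a description over few genes. Pmvk, with the lowest ratio of the set, was among the 5 without GGGCGG. Since 12 of the 13 sterol synthesis enzymes held GGGCGG, the presence of this box and the role of a gene cannot be told apart. The medians were -0.27 for the 6 genes with CACGTG and -0.18 for the 20 without it.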

How the data were processed

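Per the labels and the paper, the authors aligned single-end reads of 51 bases (TopHat2 with Bowtie, mm10) and estimated expression with Cufflinks. The deposited values are FPKM per locus with 95% bounds, the same quantity as RPKM for single-end reads. Cufflinks also assembled loci in each library, so some genes carry an assembled identifier and a few share a joint name. Tool versions are not given in the sources used here.

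RPKM of rows with the same symbol was summed. The ratio of RPKM carried no pseudocount, and log2 fold changes used 0.1. A gene was counted when the 95% intervals of the libraries did not overlap. The bounds of a ratio were computed from both interval widths, and the files hold no read totals, so depth is unknown. With 1 library per group there was no test, and all numbers compare these libraries, not the conditions. The members and lists were chosen with earlier results of these data known. Named genes were every member, Klf9, genes of the other lipid lists that differed at least 1.5-fold in either direction and whose intervals did not overlap, the PGC markers Dppa3, Dazl, Ddx4 and Dnd1, and the steroidogenic markers, and other marker lists are given by counts and sums. Some genes of the lists are not reported here. The steps were tested on simulated data. Alternatives covered pseudocounts of 0.01 and 1, rescaling, minimum RPKM, widened intervals and the choice of rows. Promoter windows came from RefSeq (GRCm38.p6), and loci of the 33 genes overlapped their GENCODE M21 genes. Calculations used Python 3.11.15 with pandas 2.3.3, numpy 2.4.6 and scipy 1.17.1, and figures matplotlib 3.10.9.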

Additional observations from a re-analysis of the deposited data

How the results depend on the processing

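With RPKM rescaled to the same sum, a log2 shift of 0.062 in Klf9-OE, 13 listed genes were lower without overlap instead of 20, and 3 were higher. The shares among all genes that then reached an RPKM of 1 were 14.9% lower and 20.6% higher. With the same upper quartile, a shift of 0.029, 17 listed genes were lower and 3 higher, counts for which no share over all genes was taken. With Klf9-OE intervals widened by the square root of 2, 1 gene was higher without overlap instead of 2. Among the 8 genes under their reference name in both files, an alternative chosen after seeing the data, 4 were lower and 0 higher. Fewer genes were counted there by construction, and the share over all genes of that kind was not taken. The median log2 fold change of the list stayed between -0.22 and -0.12 under all alternatives, and those of the roles kept their sign. No gene was 2-fold apart under any alternative run for that count, and none reached 1.5-fold on the deposited scale. Of the 24 genes below their control value, 22 were still below it with the same sum, and no gene whose intervals did not overlap changed direction. The files give no read totals and 1 library per group, so no error covers the difference between cultures.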

Other observations

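Some further genes of sterol and fatty acid handling were measured. Cyp27a1, a sterol hydroxylase, was at an RPKM of 0.0431 (0 to 0.104) in the control library and 0.494 (0.307 to 0.681) in the Klf9-OE library, with intervals that did not overlap. Ch25h, which makes an oxysterol that holds back SREBP, had 0.127 (0 to 0.253) and 0.415 (0.207 to 0.622), with intervals that overlapped. Soat2, an enzyme of cholesterol esters, had 0.536 (0.329 to 0.742) and 0.797 (0.569 to 1.02), also with overlap. Its paralog Soat1 had 16.2 in control and 14.1 (13.5 to 14.7) in Klf9-OE, but the control interval, 0 to 13770, leaves the difference undetermined. Scarb1, a lipoprotein receptor, was more abundant and lower in Klf9-OE PGCs, at 21.1 (19.7 to 22.4) in control and 16.9 (15.8 to 18.0). Slc25a1, which exports the citrate used by ATP citrate lyase, had 42.4 (39.6 to 45.1) and 33.9 (32.2 to 35.5), without overlap. Hsd17b12, a reductase of fatty acid elongation, was higher, at 48.2 (46.2 to 50.3) and 64.4 (62.2 to 66.5). Of these genes only Cyp27a1 was picked by the rule for named genes, and the others were chosen after their values were seen.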
